A study of Mus musculus with 24 samples.

Results

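The response of mouse myoblasts to bone morphogenetic protein 4 (BMP4) was compared between cells without MuSK and wild-type cells. The comparison rests on 12 of the 24 arrays of the series, the arrays whose titles name undifferentiated myoblasts, and covers all 19938 genes measured by a probe set for 1 gene. They form 4 groups of 3 arrays: BMP4-treated MuSK-null, untreated MuSK-null, BMP4-treated wild-type and untreated wild-type myoblasts. The MuSK-null cells were an immortalised MuSK-/- line. The wild-type cells were the immortalised H-2Kb-tsA58 line, in which an interferon-inducible promoter drives a temperature-sensitive large T antigen. All 12 cultures grew at 33 °C in serum with interferon-γ. Treated cultures went without serum for 4 h and then received 25 ng/ml BMP4 for 8 h. The labels do not say whether untreated cultures also lost their serum, so in each line's response the BMP4 and the loss of serum cannot be told apart. Each genotype was represented by 1 line, so the effect of MuSK and other differences between the lines cannot be told apart either.

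BMP4 binds receptor serine/threonine kinases, which phosphorylate the transcription factors Smad1, Smad5 and Smad9. With Smad4 these switch on a set of immediate targets, among them the Id genes, which restrain myogenic factors, and the inhibitory Smads, which dampen the signal. In myoblasts BMP4 holds back muscle differentiation and can induce bone genes. MuSK is a receptor tyrosine kinase best known for organising acetylcholine receptors at the neuromuscular synapse, and it has also been described as a BMP co-receptor.

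Values are log2 signals, so a difference of 1 is a doubling, and the level of 1 gene is not set against that of another. The response of a line is its treated minus its untreated mean. The difference of responses is the MuSK-null response minus the wild-type response, and a gene is called where limma's Benjamini-Hochberg adjusted p over all genes was under 0.05. The same number equals the gap between the lines (MuSK-null minus wild type) after BMP4 minus the gap before it. A lower response in MuSK-null cells can therefore come with a lower treated level, with a higher untreated level, or with both. The main genes are described with all 4 levels, and others by responses, gaps or differences alone.

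Musk itself (probe set 10505145) read 11.09, 10.88 and 11.16 in treated and 10.93, 10.69 and 10.94 in untreated MuSK-null myoblasts, against 12.09, 12.11 and 12.19 in treated and 11.63, 11.50 and 11.58 in untreated wild-type myoblasts. The MuSK-null arrays lay below the wild-type arrays in both conditions, but a signal was left. No source used here names the deleted exons, so the probe set checks the labels in part. The difference of responses of Musk was -0.37 (SE 0.10, adjusted p = 0.057). Markers of myoblasts were present in both lines, except that Pax7 lay between 7.20 and 7.45 on all 12 arrays. Their levels differed between the lines. Des lay at 11.06 to 11.39 in MuSK-null and 13.05 to 13.38 in wild-type arrays. Myod1, Cdh15, Itga7 and Chrna1 were also lower on all MuSK-null arrays in both conditions, and Myf5 was higher. Untreated Myod1 lay at 11.43 to 11.54 in MuSK-null and 12.72 to 12.76 in wild-type arrays. The lines also differed in genes of the sex chromosomes: Xist lay between 12.91 and 13.30 in MuSK-null arrays, against 5.69 to 6.32 in wild-type arrays, and the Y-linked Eif2s3y between 4.43 and 4.92, against 10.48 to 10.76. Of 14 fibroblast markers 10 were higher and 2 lower in untreated MuSK-null cells, beside 15.3% and 16% of all genes. Their mean level was 9.60 to 9.67 in treated and 9.73 to 9.80 in untreated MuSK-null arrays, against 9.05 to 9.08 in treated and 9.14 to 9.19 in untreated wild-type arrays. The part of such line differences in the results was not tested. For 11 endothelial and blood cell markers 0 were called in any contrast within myoblasts, and the blood cell marker Ptprc lay between 5.58 and 5.87 on all 12 arrays. In 4 arrays, 1 of each group (replicate 2 of treated MuSK-null, untreated MuSK-null and untreated wild type, replicate 3 of treated wild type), many genes deviated together from their group means. These 4 arrays are called the array set. Calls that ended without them are named for the genes chosen by the rules given with the processing. For other described list members the outcome is not given gene by gene.

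BMP4 changed fewer genes in MuSK-null than in wild-type myoblasts by count, and 477 genes responded differently, 2.39% of those tested. In MuSK-null cells 776 genes rose (3.89% of those tested) and 902 fell (4.52%), 8.42% in all, against 1038 that rose (5.21%) and 1148 that fell (5.76%) in wild type, 11% in all; the counts themselves were not compared by a test. Of the 477 genes, 233 had a higher response in MuSK-null cells (1.17% of all genes) and 244 a lower one (1.22%). With arrays centred on the median of all rows, including rows without a gene, 164 of 447 called genes were higher, 36.7% against 48.8% as deposited, so the split of directions moves with the scaling. The difference reached at least 1 log2 unit for 23 genes with a higher response (0.115% of all genes) and 26 with a lower one (0.13%). The median difference over all genes was 0.01, and -0.03 with that centring. Without the array set 352 genes were called, and 745 with the set as a block in the fit.

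**Figure D1:**
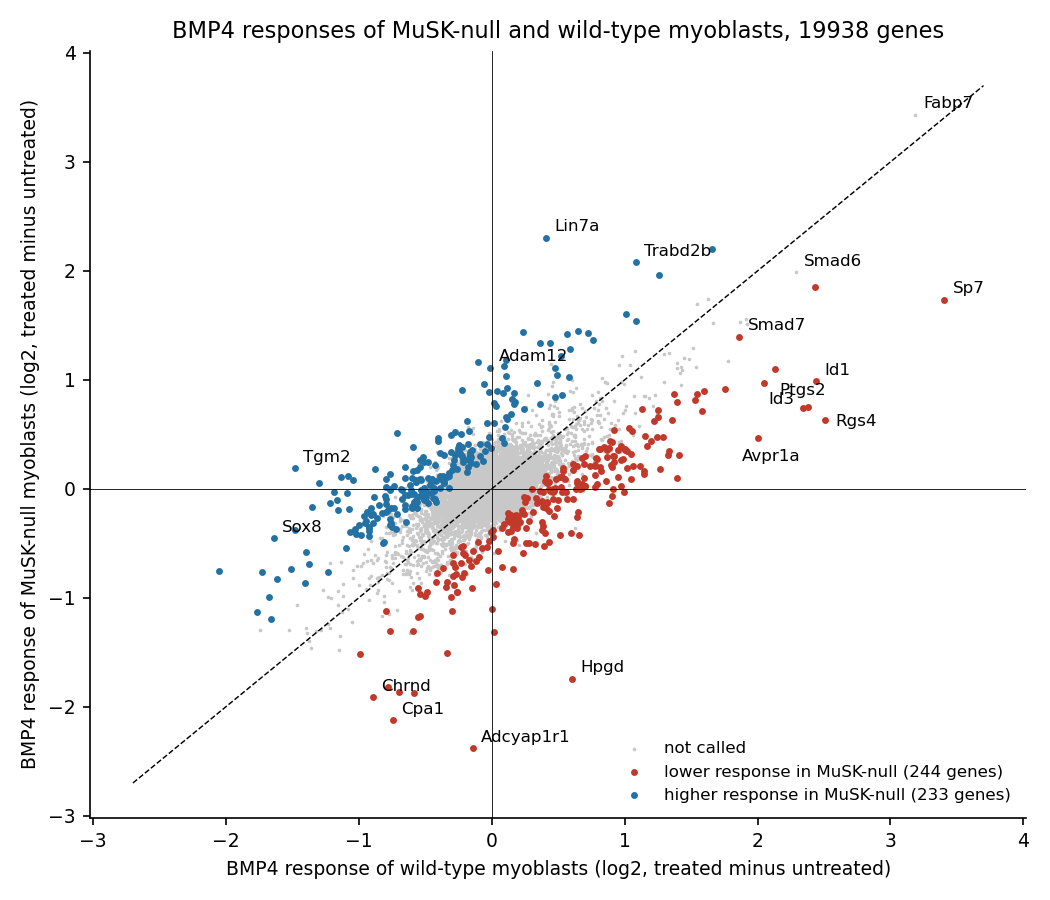
BMP4 responses (log2, treated minus untreated) of MuSK-null myoblasts (vertical) and wild-type myoblasts (horizontal), 1 point per gene, 19938 genes. The dashed line marks equal responses; the 244 called lower responses lie below it in red and the 233 called higher ones above it in blue, and Fabp7 lies near the line at the upper right.

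By their calls in each line, most of the 477 genes had changed in 1 line only. Of the 244 lower responses, 82 rose in wild type alone, 58 rose in both lines, 54 fell in MuSK-null cells alone, 33 fell in both, 16 fell in MuSK-null cells but rose in wild type, and 1 was called in neither. Among the 233 genes with a higher response, 105 fell in wild type alone, 34 fell in both lines, 54 rose in MuSK-null cells alone, 19 rose in both, 13 rose in MuSK-null cells but fell in wild type, and 8 were called in neither. A call missed in 1 line does not show that the gene did not respond there.

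The levels before and after BMP4 divide these genes further. After BMP4, 29.7% of all genes differed between the lines (5916 called), and before it 31.3% already did (6245). By direction, 14.1% were higher and 15.6% lower in MuSK-null cells after BMP4, and 15.3% and 16% before it. Among the 244 lower responses, 127 genes were already higher in untreated MuSK-null cells, and after BMP4 54 of them were still higher, 54 were not called and 19 were lower. Another 53 did not differ by call before BMP4 and were all lower after it, and 64 were lower both before and after. Of the 244 genes, 156 rose in wild type: 81 of these started higher in MuSK-null cells, with 30 still higher, 38 not called and 13 lower after BMP4, 36 started without a called gap and ended lower, and 39 were lower throughout. A raised untreated level thus stood beside 81 of the 156 genes that rose in wild type and had a lower response in MuSK-null cells. The untreated gap enters the difference with its sign turned, so this count follows in part from the choice of genes.

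Among the 233 higher responses, 150 genes were lower in untreated MuSK-null cells; after BMP4 89 of them were still lower, 49 were not called and 12 were higher. Another 31 had no called gap before BMP4 and were all higher after it, and 52 were higher both before and after. Of the 233, 152 fell in wild type, and 122 of those were already lower in untreated MuSK-null cells, 77 of them still lower after BMP4, 37 not called and 8 higher. All these contrasts share arrays, so the classes describe the genes and are not separate evidence.

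**Figure D2:**
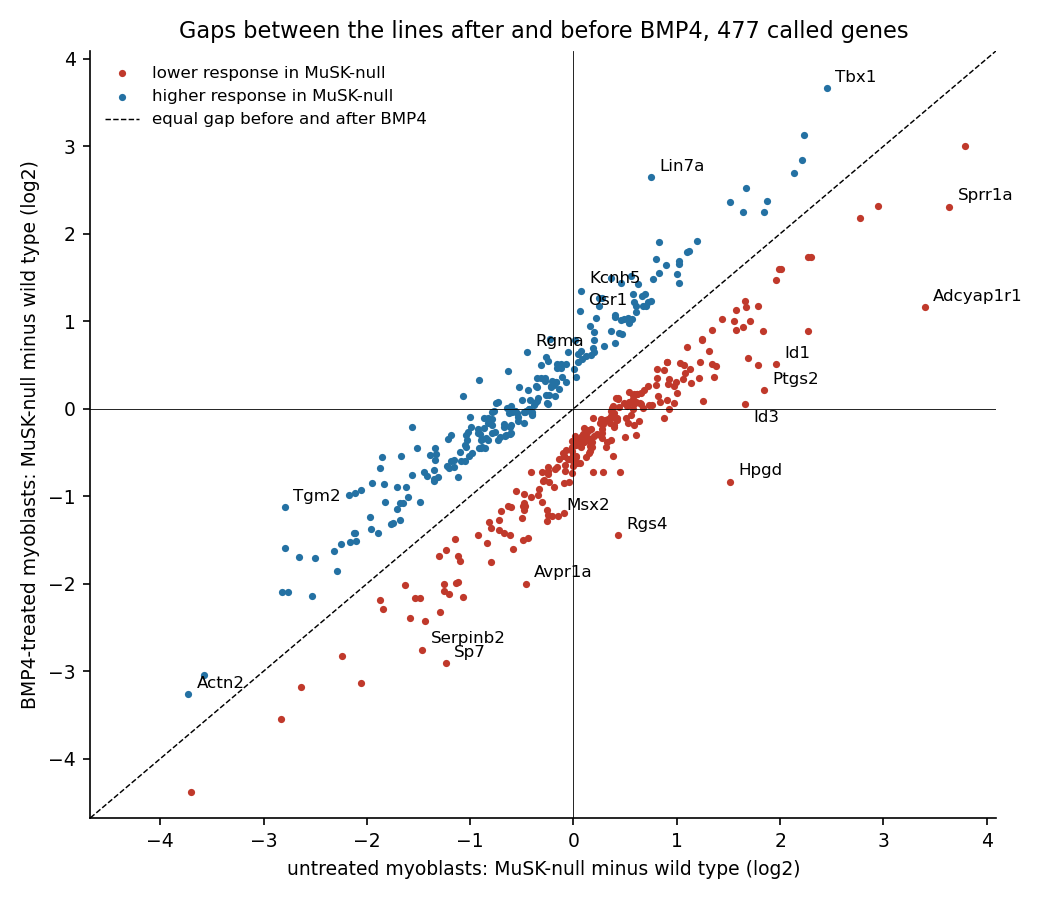
Gap between the lines (MuSK-null minus wild type, log2) in BMP4-treated myoblasts (vertical) and untreated myoblasts (horizontal) for the 477 called genes. Distance below the dashed line of equal gaps is a lower response in MuSK-null cells (red) and distance above it a higher one (blue). Id1, Id3 and Ptgs2 lie to the right of 0, higher before BMP4 and with gaps of 0.51, 0.06 and 0.21 after it, while Rgs4, Avpr1a and Sp7 lie well below 0 after BMP4.

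Of 39 ligands, receptors and antagonists of the BMP pathway, 4 had a higher and 3 a lower response in MuSK-null cells, 17.9% called beside 2.39% of all genes; the median difference was -0.03. Receptor and Smad genes on the list were not called in the difference of responses, with -0.07 (SE 0.08) for the type I receptor gene Bmpr1a, -0.06 (SE 0.08) for Acvr1, another type I receptor, -0.04 (SE 0.14) for the type II receptor gene Bmpr2 and -0.08 (SE 0.07) for Smad4 (adjusted p from 0.835 to 0.982). The type II receptor gene Acvr2a had a difference of 0.01 (adjusted p = 0.996) but was higher in MuSK-null cells by 1.74 after and 1.73 before BMP4. The ligand gene Bmp4 read 12.11, 11.74 and 12.11 in treated and 12.49, 12.23 and 12.49 in untreated MuSK-null myoblasts, against 9.83, 9.89 and 9.49 in treated and 10.81, 10.58 and 10.89 in untreated wild-type myoblasts. It was far higher in MuSK-null cells in both conditions, and it fell by 0.42 there and by 1.02 in wild type, a difference of 0.61 (SE 0.16, adjusted p = 0.0422). That call was lost on leaving out any of 7 arrays in turn (replicates 1 and 3 of treated MuSK-null, 1 and 2 of untreated MuSK-null, 3 of treated wild type, 1 and 3 of untreated wild type), with adjusted p from 0.00827 to 0.127 over all 12. It was also lost with arrays centred on the median of genes (adjusted p = 0.0511) or of all rows (0.0524) and with the 12 arrays alone, and it held without the array set (0.00831).

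Bmp2, another BMP ligand gene, averaged 5.76 in treated and 5.59 in untreated MuSK-null cells, against 8.18 in treated and 7.03 in untreated wild-type cells. Its wild-type rise of 1.15 stood beside a MuSK-null change of 0.17 (adjusted p = 0.725), a difference of -0.98 (SE 0.24, adjusted p = 0.0294). Leaving out the array set ended the call (-0.71, adjusted p = 0.194), as did leaving out any of 6 arrays in turn (replicate 2 of treated MuSK-null, 1 and 2 of untreated MuSK-null, 1 and 2 of treated wild type, 2 of untreated wild type; adjusted p from 0.00808 to 0.0966 over all 12). Inhba, the activin A subunit, rose by 0.48 in MuSK-null and 1.16 in wild-type cells and was lower in MuSK-null cells before and after. Hjv, a BMP co-receptor of muscle and liver, fell in both lines, by 1.18 in MuSK-null and 0.55 in wild type. Rgma, of the same co-receptor family, did the reverse: it fell by 1.22 in wild type and changed by -0.13 (adjusted p = 0.516) in MuSK-null cells, and its order turned, with treated MuSK-null arrays at 8.60 to 8.90 above treated wild-type arrays at 8.06 to 8.18, and untreated MuSK-null arrays at 8.69 to 9.02 below untreated wild-type arrays at 9.24 to 9.46. The antagonist gene Chrd and the growth factor gene Mstn, which limits muscle mass, made up the other higher responses (0.54 and 0.73). Mstn was low on all 12 arrays, between 5.30 and 6.46. It lost its call without replicate 3 of treated MuSK-null, replicate 3 of treated wild type or replicates 1 or 3 of untreated wild type (highest adjusted p 0.0751), with quantile normalization and without the array set (0.0799).

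Many direct BMP and Smad targets rose in both lines. Of 33 measured, 24 rose and 0 fell in MuSK-null cells, beside 3.89% and 4.52% of all genes. In wild type 25 rose and 1 fell, beside 5.21% and 5.76%. In the difference, 11 had a lower and 2 a higher response in MuSK-null cells, 39.4% called beside 2.39% of all genes. Without the array set 6 had a lower response. Id1, Id2, Id3 and Msx2 kept their calls there, and Smad7 and Lfng lost theirs. The outcome for Atoh8, Nog, Msx1, Dlx2 and Dlx3 is not given gene by gene. The median difference was -0.26. After BMP4, 14 of the 33 were higher and 9 lower in MuSK-null cells, beside 14.1% and 15.6% of all genes. Before it 18 were higher and 3 lower, beside 15.3% and 16%.

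The Id genes encode inhibitors of basic helix-loop-helix factors. Id1 (probe set 10477169) read 11.59, 11.60 and 11.66 in treated and 10.59, 10.71 and 10.56 in untreated MuSK-null myoblasts, against 11.10, 11.15 and 11.06 in treated and 8.71, 8.66 and 8.62 in untreated wild-type myoblasts. Untreated MuSK-null cells thus stood close to, and below, treated wild-type cells, and treated MuSK-null cells were the highest of the 4 groups. The response of Id1 was 0.99 in MuSK-null and 2.44 in wild-type cells. Id3 (probe set 10509163) read 11.65, 11.83 and 11.69 in treated and 11.02, 10.96 and 10.97 in untreated MuSK-null myoblasts, against 11.58, 11.67 and 11.75 in treated and 9.37, 9.40 and 9.20 in untreated wild-type myoblasts. Its treated arrays overlapped between the lines, with a gap of 0.06 (adjusted p = 0.701), so the difference of -1.60 stood in the untreated arrays. Id2 was closer to Id1, with a called treated gap of 0.35 (adjusted p = 0.00166) and an untreated gap of 1.22. Id4 had no called gap or difference: its responses were 0.60 in MuSK-null and 0.75 in wild-type cells, and the 95% interval of their difference ran from -0.44 to 0.15. Atoh8, a helix-loop-helix factor induced by BMP, went with Id1 to Id3 (untreated gap 1.23, difference -0.69).

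The inhibitory Smads rose strongly in both lines. Smad6 averaged 11.78 in treated and 9.79 in untreated MuSK-null cells, against 11.05 in treated and 8.76 in untreated wild-type cells, a shift of the whole response upward; the difference was -0.30, with a 95% interval from -0.53 to -0.07 (adjusted p = 0.236). Smad7 had responses of 1.40 and 1.86 and lay at the threshold (adjusted p = 0.0498), a call that 11 of the 12 single omissions ended (all but replicate 2 of treated MuSK-null; adjusted p from 0.0398 to 0.149), as did leaving out the array set (0.145). Smad9, a receptor-activated Smad that is itself a target, differed by 0.16 (SE 0.11, adjusted p = 0.723), and Bambi, a decoy receptor, by -0.14 (SE 0.10, adjusted p = 0.763). Fabp7, a fatty acid binding protein, had the largest response of the MuSK-null cells among the genes named here, 3.43 against 3.18 in wild type, with a 95% interval of the difference from 0.01 to 0.49 (adjusted p = 0.445).

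Homeobox targets and the antagonist Noggin differed from the Id genes in their levels. Msx2, a homeobox factor, read 8.81, 8.17 and 8.70 in treated and 7.67, 7.59 and 7.52 in untreated MuSK-null myoblasts, against 9.62, 9.92 and 9.83 in treated and 7.86, 7.73 and 7.64 in untreated wild-type myoblasts. The untreated arrays overlapped (gap -0.15, adjusted p = 0.437) and the treated MuSK-null arrays all lay below the treated wild-type arrays, so here the induction itself was smaller, 0.97 against 2.05 (difference -1.08, SE 0.17, adjusted p = 0.00064). Nog, which encodes the BMP antagonist Noggin, had a treated gap of -1.28 and an untreated gap of -0.26 (difference -1.02). Dlx3 and Msx1, 2 further homeobox genes, ended lower by 0.71 and 0.69 with untreated gaps of -0.08 and -0.18 that were not called. Dlx2 behaved otherwise: it reached 11.75 in treated cells of both lines and started higher by 0.58 in MuSK-null cells (difference -0.57, adjusted p = 0.0474). Hey1 and Fst, the 2 targets with a higher response in MuSK-null cells (0.70 and 0.56), were lower in MuSK-null cells after BMP4, by 1.42 and 1.15, and before it, by 2.12 and 1.71, when they were the furthest of the 33 below wild type. Hey1, a repressor shared with the Notch pathway, lost its call with quantile normalization and on leaving out any of 7 arrays (replicates 1 and 3 of treated MuSK-null, 2 and 3 of untreated MuSK-null, 3 of treated wild type, 1 and 3 of untreated wild type; adjusted p from 0.00198 to 0.112 over all 12).

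Of 24 osteoblast and cartilage genes, 4 had a lower response in MuSK-null cells and 0 a higher one (16.7% called beside 2.39% of all genes), with a median difference near 0 (0.00). Sp7, the osteoblast transcription factor osterix (probe set 10433003), read 8.33, 7.97 and 8.33 in treated and 6.29, 6.55 and 6.59 in untreated MuSK-null myoblasts, against 11.32, 11.15 and 10.87 in treated and 7.64, 7.71 and 7.78 in untreated wild-type myoblasts. MuSK-null cells were lower in both conditions, and treated MuSK-null cells barely passed the untreated wild-type level. The gap was -2.90 after BMP4, wider than the -1.24 before it (difference -1.67, SE 0.19, adjusted p = 9.59e-06). Alpl, the bone alkaline phosphatase, repeated this, with gaps of -2.33 after and -1.29 before BMP4. Ank, a pyrophosphate transporter gene, ended level (gap 0.08) after starting higher by 0.54 in MuSK-null cells. Sox9 and Fmod, genes of cartilage and its matrix, rose in both lines without a called difference (0.29 and -0.22) and were higher in MuSK-null cells throughout.

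Prostaglandin genes gave 4 lower and 0 higher responses among 30 measured, 13.3% called beside 2.39% of all genes (1.22% lower, 1.17% higher). Ptgs2 encodes the inducible cyclooxygenase that starts prostaglandin synthesis (probe set 10350516). It read 13.02, 12.83 and 12.95 in treated and 12.13, 12.14 and 12.28 in untreated MuSK-null myoblasts, against 12.70, 12.79 and 12.67 in treated and 10.37, 10.21 and 10.44 in untreated wild-type myoblasts. The treated gap was 0.21 (adjusted p = 0.0551), although the treated arrays did not overlap, and the untreated gap 1.85. Ptger4, a prostaglandin E receptor, ended level (gap 0.04, adjusted p = 0.799) after starting higher by 0.76 in MuSK-null cells. Pla2g4a, the phospholipase that releases arachidonic acid, rose by 0.82 in wild type, changed by 0.16 (adjusted p = 0.339) in MuSK-null cells and was higher in MuSK-null cells by 0.66 after and 1.31 before BMP4.

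Hpgd, the dehydrogenase that inactivates prostaglandins (probe set 10571840), had the most negative difference of all called genes, -2.35 (SE 0.12, adjusted p = 2.01e-11). It read 8.61, 8.41 and 8.49 in treated and 10.29, 10.22 and 10.23 in untreated MuSK-null myoblasts, against 9.40, 9.44 and 9.17 in treated and 8.68, 8.79 and 8.73 in untreated wild-type myoblasts. BMP4 moved the lines in opposite directions, a fall of 1.74 in MuSK-null and a rise of 0.61 in wild-type cells, and the order of the lines turned: MuSK-null arrays were all above wild type before BMP4 and all below after it.

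Rgs4, a regulator that ends G-protein signalling (probe set 10359908), was induced far less in MuSK-null cells. It read 7.45, 7.47 and 7.67 in treated and 6.78, 6.96 and 6.95 in untreated MuSK-null myoblasts, against 9.09, 8.95 and 8.89 in treated and 6.31, 6.58 and 6.50 in untreated wild-type myoblasts. Untreated MuSK-null arrays were above untreated wild-type arrays, and the responses were 0.63 in MuSK-null and 2.51 in wild-type cells (difference -1.88, SE 0.13, adjusted p = 6.79e-09). Of 19 RGS and related genes measured, Rgs4 alone had a called lower response, and Rgs16 and Gprc5c a higher one (15.8% called beside 2.39% of all genes); both fell in wild type (by 1.40 and 1.05) from a higher untreated level, while in MuSK-null cells Rgs16 fell by 0.87 and Gprc5c changed by 0.08. Rgs16 lost its call without the array set (0.54, adjusted p = 0.0542), and a further probe set for Gprc5c gave 0.89 (adjusted p = 0.000451).

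Avpr1a, the vasopressin receptor 1A gene (probe set 10366707), was similar. It read 7.49, 7.75 and 7.72 in treated and 7.15, 7.31 and 7.09 in untreated MuSK-null myoblasts, against 9.61, 9.52 and 9.84 in treated and 7.46, 7.79 and 7.70 in untreated wild-type myoblasts. Treated MuSK-null cells only reached the range of untreated wild-type cells. The treated gap was -2.00 and the untreated gap -0.46 (difference -1.54, SE 0.16, adjusted p = 1.67e-06). Serpinb2, a plasminogen activator inhibitor, rose by 1.39 in wild type and changed by 0.10 (adjusted p = 0.817) in MuSK-null cells, from an untreated level lower by 1.47. Nts, the neurotensin gene, lay at 4.96 to 5.12 in treated and 4.92 to 5.36 in untreated MuSK-null arrays, against 6.12 to 6.45 in treated and 5.15 to 5.38 in untreated wild-type arrays. Only the treated wild-type arrays stood apart.

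**Figure D3:**
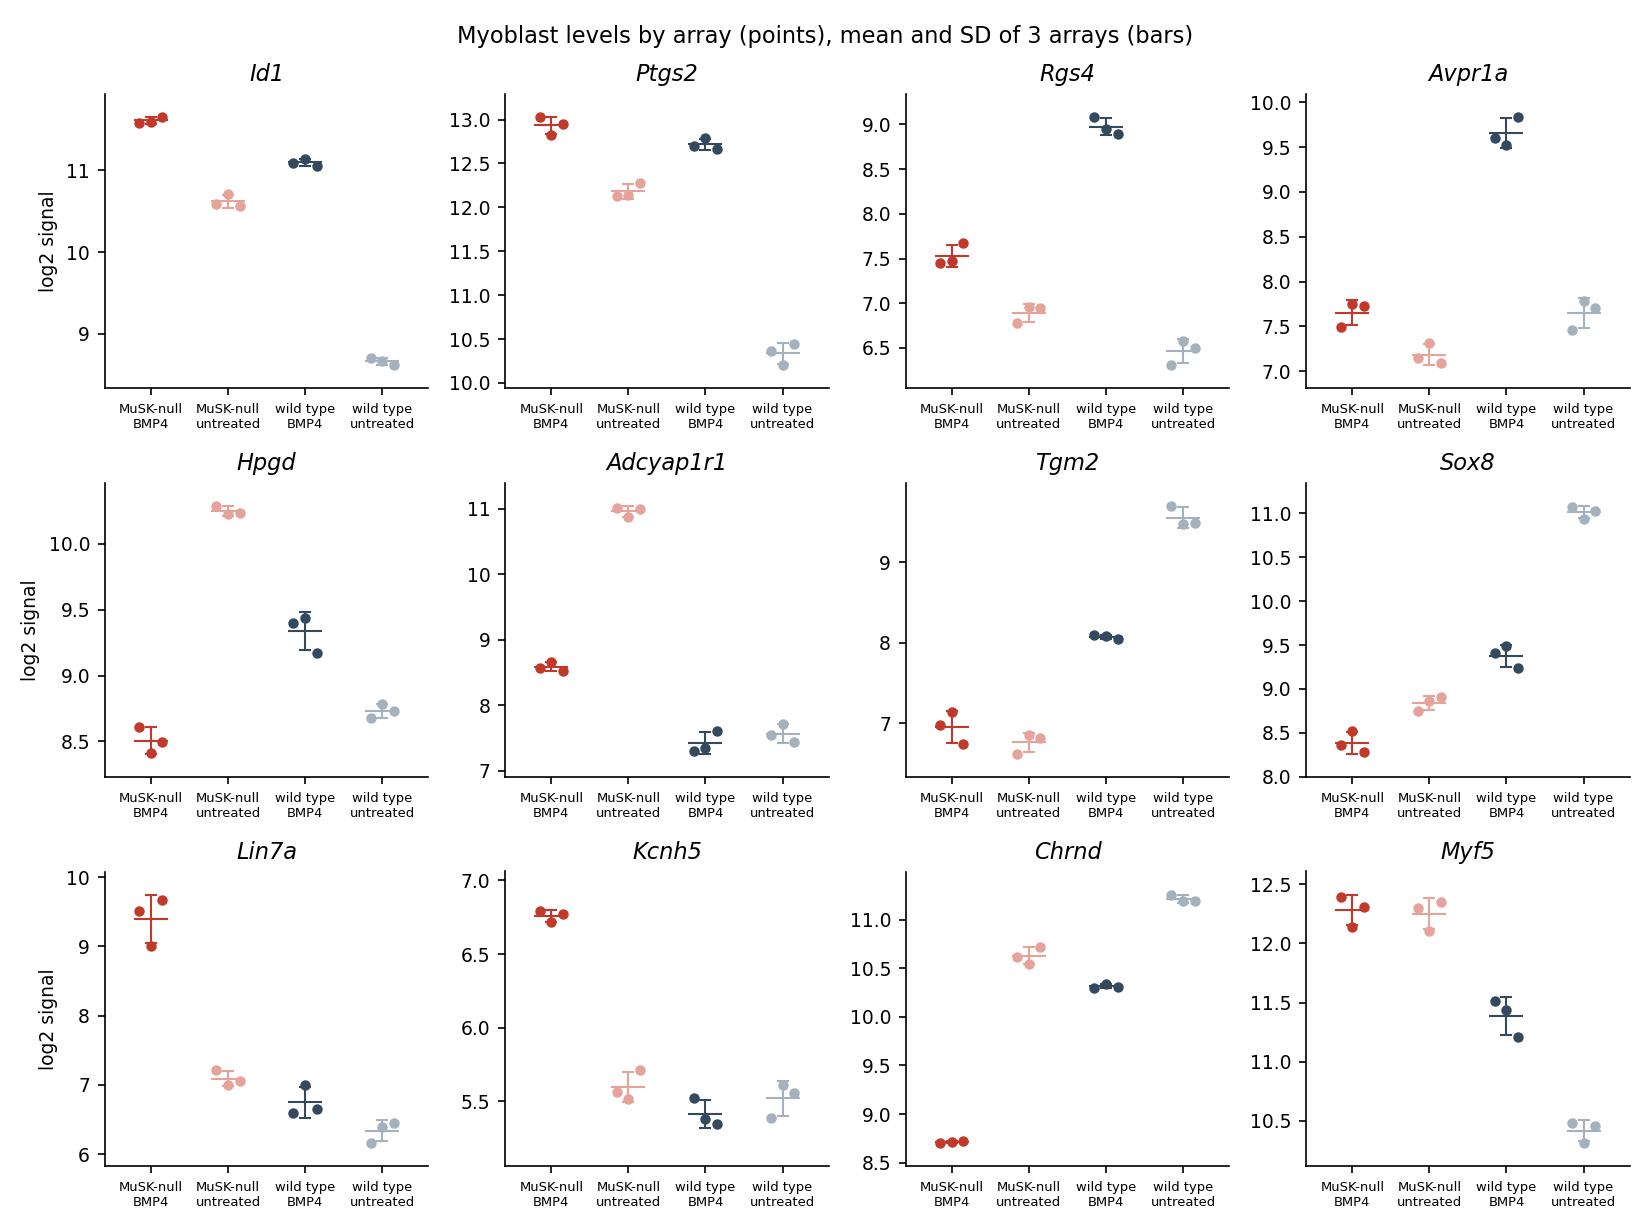
Log2 signal of 12 genes on each of the 12 myoblast arrays (points), with the mean and SD of 3 arrays (bars), in the order treated MuSK-null, untreated MuSK-null, treated wild type and untreated wild type. Treated Rgs4 and Avpr1a are far lower in MuSK-null than in wild-type cells, Id1 and Ptgs2 differ most between the untreated groups, and Hpgd and Adcyap1r1 fall with BMP4 in MuSK-null cells.

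Rgs4, Ptgs2, Id3 and Avpr1a are the 4 genes with the most negative differences among called genes that rose by at least 2 log2 units in wild type and have a promoter in the supplied RefSeq table (assembly GRCm38.p6). Their promoters are shown because the genes rose together in wild type but divide by level, Id3 and Ptgs2 by a raised untreated level and Rgs4 and Avpr1a by a low treated one. The 250 bases before each start were searched on both strands for GGCGCC, a GC-rich element bound by Smad1 and Smad5, and for CAGAC, the core bound by Smad3 and Smad4, which reads GTCTG where it lies on the other strand. The motifs can overlap by 1 base. Matches are in capitals.
Rgs4 (chr1:169747643-169747892, minus strand): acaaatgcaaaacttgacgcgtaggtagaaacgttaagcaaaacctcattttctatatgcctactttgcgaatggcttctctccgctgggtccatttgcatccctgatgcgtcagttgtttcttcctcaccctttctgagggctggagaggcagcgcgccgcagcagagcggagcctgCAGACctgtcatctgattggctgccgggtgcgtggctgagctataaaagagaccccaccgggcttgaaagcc
Ptgs2 (chr1:150099781-150100030, plus strand): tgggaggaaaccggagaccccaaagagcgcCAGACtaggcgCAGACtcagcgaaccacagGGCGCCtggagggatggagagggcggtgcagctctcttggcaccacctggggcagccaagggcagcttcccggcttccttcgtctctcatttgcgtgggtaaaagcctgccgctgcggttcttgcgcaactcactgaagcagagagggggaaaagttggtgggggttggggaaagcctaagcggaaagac
Id3 (chr4:136143572-136143821, plus strand): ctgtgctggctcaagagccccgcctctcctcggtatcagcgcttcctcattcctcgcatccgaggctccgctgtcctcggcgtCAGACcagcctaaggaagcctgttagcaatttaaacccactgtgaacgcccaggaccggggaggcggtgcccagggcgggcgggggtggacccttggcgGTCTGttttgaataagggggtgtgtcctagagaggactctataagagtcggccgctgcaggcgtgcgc
Avpr1a (chr10:122448249-122448498, plus strand): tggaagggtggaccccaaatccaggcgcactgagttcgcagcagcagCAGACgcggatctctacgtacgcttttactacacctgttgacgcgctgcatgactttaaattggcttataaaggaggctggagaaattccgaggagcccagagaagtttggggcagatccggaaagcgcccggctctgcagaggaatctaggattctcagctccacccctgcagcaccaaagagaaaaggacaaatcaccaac
The Ptgs2 window held GGCGCC 1 time and CAGAC 2 times, the Id3 window CAGAC 1 time on each strand, and the Rgs4 and Avpr1a windows CAGAC 1 time each. Of the 156 genes with a lower response that rose in wild type, 128 had a window, and 27 of these (21.1%) held GGCGCC and 63 (49.2%) CAGAC. Among all 1038 genes that rose in wild type, 788 had a window, of which 26% held GGCGCC and 46.6% CAGAC; among all genes with a window, 15614, the shares were 15% and 45.4%. A match is a description of the window and not a binding site.

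A second set of genes fell with BMP4 in wild type and did so less, or not by call, in MuSK-null cells, where most were already low. Tgm2, a transglutaminase (probe set 10489204), read 6.97, 7.14 and 6.75 in treated and 6.62, 6.85 and 6.81 in untreated MuSK-null myoblasts, against 8.10, 8.08 and 8.05 in treated and 9.70, 9.48 and 9.48 in untreated wild-type myoblasts. MuSK-null arrays were lower throughout, and the gap was -1.12 after BMP4, smaller than the -2.79 before it (difference 1.67, SE 0.12, adjusted p = 1.71e-08). Sox8, a transcription factor gene, fell by 0.45 in MuSK-null and 1.64 in wild-type cells, with gaps of -0.99 after and -2.18 before BMP4. Pde2a, a cyclic nucleotide phosphodiesterase, fell by 1.18 in wild type, where it averaged 8.88 after and 10.07 before BMP4, and stood at 7.92 after and 7.96 before it in MuSK-null cells. Filip1 and Daam2, regulators of the actin cytoskeleton, followed the same pattern (untreated gaps -2.79 and -1.87), as did the cell cycle factor gene E2f2 (-1.95). On all MuSK-null arrays Tgm2, Filip1 and Daam2 lay below the array medians (7.41 to 7.50), and Sox8, Pde2a and E2f2 above them. The room left for a fall at these levels was not tested.

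For some of these genes the lines met after BMP4. Shisal1 read 7.14, 7.06 and 7.29 in treated and 6.94, 7.09 and 7.31 in untreated MuSK-null myoblasts, against 7.57, 7.23 and 7.32 in treated and 8.75, 8.59 and 8.68 in untreated wild-type myoblasts. Only the untreated wild-type arrays stood apart. The MuSK-null arrays of Shisal1 also lay below the array medians. Nup210, a nuclear pore gene, ended at a gap of -0.10 (adjusted p = 0.302) after one of -1.0, and the growth inhibitor gene Cdkn1c at 0.25 (adjusted p = 0.0561) after -0.53. Treated MuSK-null arrays of Nup210 (7.183 to 7.3) still lay just below the treated wild-type arrays (7.304 to 7.391), all below the array medians. Others ended higher in MuSK-null cells. Lrrc32, which encodes the surface anchor of latent TGF-beta, went to 0.33 after BMP4 with -0.92 before it. Ccbe1, a matrix protein of lymphatic growth, went to 0.43 with -0.63 before. Osr1, a zinc finger factor of embryonic connective tissue, had no called gap before BMP4 (0.06, adjusted p = 0.827) and fell by 1.09 in wild type alone, with treated MuSK-null arrays at 10.96 to 11.49 and treated wild-type arrays at 9.85 to 10.37.

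Other genes fell in MuSK-null cells and less, or not by call, in wild type. Adcyap1r1, the receptor for the neuropeptide PACAP (probe set 10538482), read 8.57, 8.66 and 8.53 in treated and 11.02, 10.87 and 11.01 in untreated MuSK-null myoblasts, against 7.31, 7.35 and 7.61 in treated and 7.54, 7.72 and 7.44 in untreated wild-type myoblasts. The wild-type arrays overlapped between conditions, while the MuSK-null level fell by 2.38, which left a gap of 1.16 after BMP4 beside 3.40 before it. Sprr1a, a cornified envelope gene, fell by 1.31 in MuSK-null cells and changed by 0.02 (adjusted p = 0.98) in wild type. Cpa1 and Stc1, which encode a carboxypeptidase and the hormone stanniocalcin, fell in both lines, with changes of -2.12 and -1.87 in MuSK-null and -0.74 and -0.59 in wild-type cells. Igfbp5, an insulin-like growth factor binding protein of muscle, fell by 1.51 in MuSK-null and 0.33 in wild-type cells, and its order turned (gaps -0.73 after and 0.45 before BMP4). Car2, a carbonic anhydrase, read 10.08, 10.05 and 10.04 in treated and 11.18, 11.17 and 11.12 in untreated MuSK-null cells, against 11.23, 11.24 and 11.29 in treated and 11.29, 11.21 and 11.25 in untreated wild-type cells. The treated MuSK-null arrays lay far below the rest (difference -1.10, SE 0.11, adjusted p = 7.8e-07).

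Neuromuscular synapse genes included 4 lower and 1 higher response among 29 measured, 17.2% called beside 2.39% of all genes, with a median difference of -0.13. Chrnd, the delta subunit of the acetylcholine receptor (probe set 10348150), read 8.71, 8.71 and 8.72 in treated and 10.62, 10.55 and 10.72 in untreated MuSK-null myoblasts, against 10.30, 10.34 and 10.31 in treated and 11.26, 11.19 and 11.19 in untreated wild-type myoblasts. It fell in both lines, with changes of -1.92 in MuSK-null and -0.90 in wild-type cells (difference -1.02, SE 0.08, adjusted p = 1.71e-08). Chrng, the fetal gamma subunit, Lrp4, the agrin receptor that acts with MuSK, and Sntb1, a syntrophin, also fell in both lines and more in MuSK-null cells (differences -0.54, -0.60 and -0.52). All 4 were lower in MuSK-null cells before BMP4 and lower still after it. The microRNA gene Mir206, looked at after its values were seen, fell by 1.82 in MuSK-null and 0.78 in wild-type cells. It is specific to muscle and is known for its role at the synapse after nerve injury. Its arrays read 6.20, 6.06 and 5.70 in treated and 7.85, 7.76 and 7.82 in untreated MuSK-null cells, against 7.42, 7.68 and 7.29 in treated and 8.48, 8.03 and 8.22 in untreated wild-type cells (difference -1.04, SE 0.21, adjusted p = 0.005). The mature sequences from RefSeq (GRCm38.p6) show what the gene gives rise to, with the seed (bases 2 to 8), which pairs with target mRNAs, in capitals; the array does not part the arms from their precursor.
mmu-miR-206-5p: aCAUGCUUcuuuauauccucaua
mmu-miR-206-3p: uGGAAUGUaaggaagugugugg

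Lin7a, a scaffold protein gene of synapses and cell junctions (probe set 10366229), was the one synapse gene with a higher response and had the most positive difference of all called genes. It read 9.51, 9.01 and 9.68 in treated and 7.22, 7.0 and 7.06 in untreated MuSK-null myoblasts, against 6.59, 7.0 and 6.65 in treated and 6.17, 6.40 and 6.45 in untreated wild-type myoblasts. All treated MuSK-null arrays lay above the arrays of the other groups. The responses were 2.31 and 0.41 (difference 1.90, SE 0.17, adjusted p = 4.7e-07).

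Lin7a leads a smaller class, genes that BMP4 raised in MuSK-null cells and not by call, or less, in wild type. Kcnh5, a potassium channel gene (probe set 10400989), read 6.79, 6.72 and 6.77 in treated and 5.56, 5.52 and 5.71 in untreated MuSK-null myoblasts, against 5.52, 5.38 and 5.35 in treated and 5.39, 5.61 and 5.56 in untreated wild-type myoblasts. The other 3 groups overlapped near the low end of the scale, and only treated MuSK-null arrays stood apart (difference 1.27, SE 0.15, adjusted p = 1.36e-05). Tbx1, a T-box factor of head muscle and pharynx, was already higher by 2.45 in untreated MuSK-null cells and rose there by 1.44, against 0.23 (adjusted p = 0.245) in wild type. Il15, an interleukin made by muscle, rose by 1.12 in MuSK-null cells and changed by 0.10 in wild type (adjusted p = 0.775). Adam12, a metalloprotease of fusing myoblasts, read 9.03, 8.95 and 9.01 in treated and 7.88, 7.88 and 7.88 in untreated MuSK-null cells, against 9.57, 9.54 and 9.52 in treated and 9.62, 9.44 and 9.60 in untreated wild-type cells. Its rise of 1.11 in MuSK-null cells brought it nearer to a wild-type level that did not change by call (-0.01, adjusted p = 0.968). Plppr5 (difference 1.13) and Pparg, the adipocyte nuclear receptor (0.62), belong here too. Of 10 adipocyte markers Pparg had a higher and Lpl a lower response (20% called beside 2.39% of all genes). The adipocyte hormone Adipoq lay between 5.52 and 6.08 on all arrays.

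In 29 of the 477 genes BMP4 gave called changes in opposite directions, 16 that fell in MuSK-null and rose in wild-type cells and 13 the other way round. Besides Hpgd, Cxcr4, a chemokine receptor of migrating muscle precursors, read 7.72, 7.85 and 8.00 in treated and 8.31, 8.31 and 8.21 in untreated MuSK-null myoblasts, against 9.98, 9.98 and 10.06 in treated and 9.26, 9.42 and 9.37 in untreated wild-type myoblasts. It was lower in MuSK-null cells throughout, and the lines moved apart, by -0.42 and 0.66. Ephb6, a receptor of the ephrin family, and Sh3bp4 instead moved together: both were level after BMP4 (gaps -0.01 and 0.07) and higher by 0.93 and 0.97 in untreated MuSK-null cells. Stra6, the retinol transporter, fell by 0.41 in MuSK-null and rose by 0.59 in wild-type cells. Among the 13, Adgrg1, an adhesion G-protein-coupled receptor, rose by 0.51 in MuSK-null cells and fell by 0.71 in wild type, with a gap of 0.15 (adjusted p = 0.249) after BMP4 beside -1.07 before it. Sparcl1, a matrix glycoprotein, rose by 0.44 in MuSK-null and fell by 0.41 in wild-type cells, and the gap widened to 2.36 with 1.52 before BMP4. Ch25h, a cholesterol hydroxylase, and Pmaip1, an apoptosis gene, were lower in MuSK-null cells in both conditions, with differences of 0.87 and 0.97.

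Myogenic regulators and fusion genes gave 4 lower and 2 higher responses among 35 measured (17.1% called beside 2.39% of all genes). In MuSK-null cells 17 fell and 3 rose, beside 4.52% and 3.89% of all genes, and in wild type 18 and 7, beside 5.76% and 5.21%. Myf5, a myogenic determination factor (probe set 10372226), read 12.39, 12.14 and 12.31 in treated and 12.30, 12.11 and 12.35 in untreated MuSK-null myoblasts, against 11.51, 11.44 and 11.21 in treated and 10.48, 10.32 and 10.46 in untreated wild-type myoblasts. It was at a level above both wild-type groups before and after BMP4 in MuSK-null cells, where the change was 0.03 (adjusted p = 0.923), and rose by 0.97 in wild type (difference -0.94, SE 0.12, adjusted p = 1.91e-05). Pax3, a regulator upstream of Myf5, had the same form on a smaller scale (untreated gap 0.58, difference -0.42), a call lost without the array set (adjusted p = 0.0684). Myod1, by contrast, was lower in MuSK-null cells before BMP4 by 1.24 and fell there by 0.59, against 0.21 in wild type. Myog and the fusion gene Mymk fell in both lines without a called difference (-0.23 and -0.25). Boc, a cell surface partner in myoblast adhesion, rose by 1.45 in MuSK-null and 0.65 in wild-type cells. Of 47 sarcomere genes 39 were lower and 0 higher in untreated MuSK-null cells, beside 16% and 15.3% of all genes, and 3 had a called difference of responses, all higher (Actn2, Myoz1 and Tmod1; 6.38% beside 2.39% of all genes). Of 29 calcium handling genes 0 were called in the difference of responses, a count near the share of all genes. In untreated MuSK-null cells 21 of the 29 were lower and 2 higher, beside 16% and 15.3% of all genes. Actn2 lost its call without replicate 1 of untreated MuSK-null (0.39, adjusted p = 0.0542) and without the array set (adjusted p = 0.0884), and a further probe set for Tmod1 gave 0.28 (adjusted p = 0.394).

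**Figure D4:**
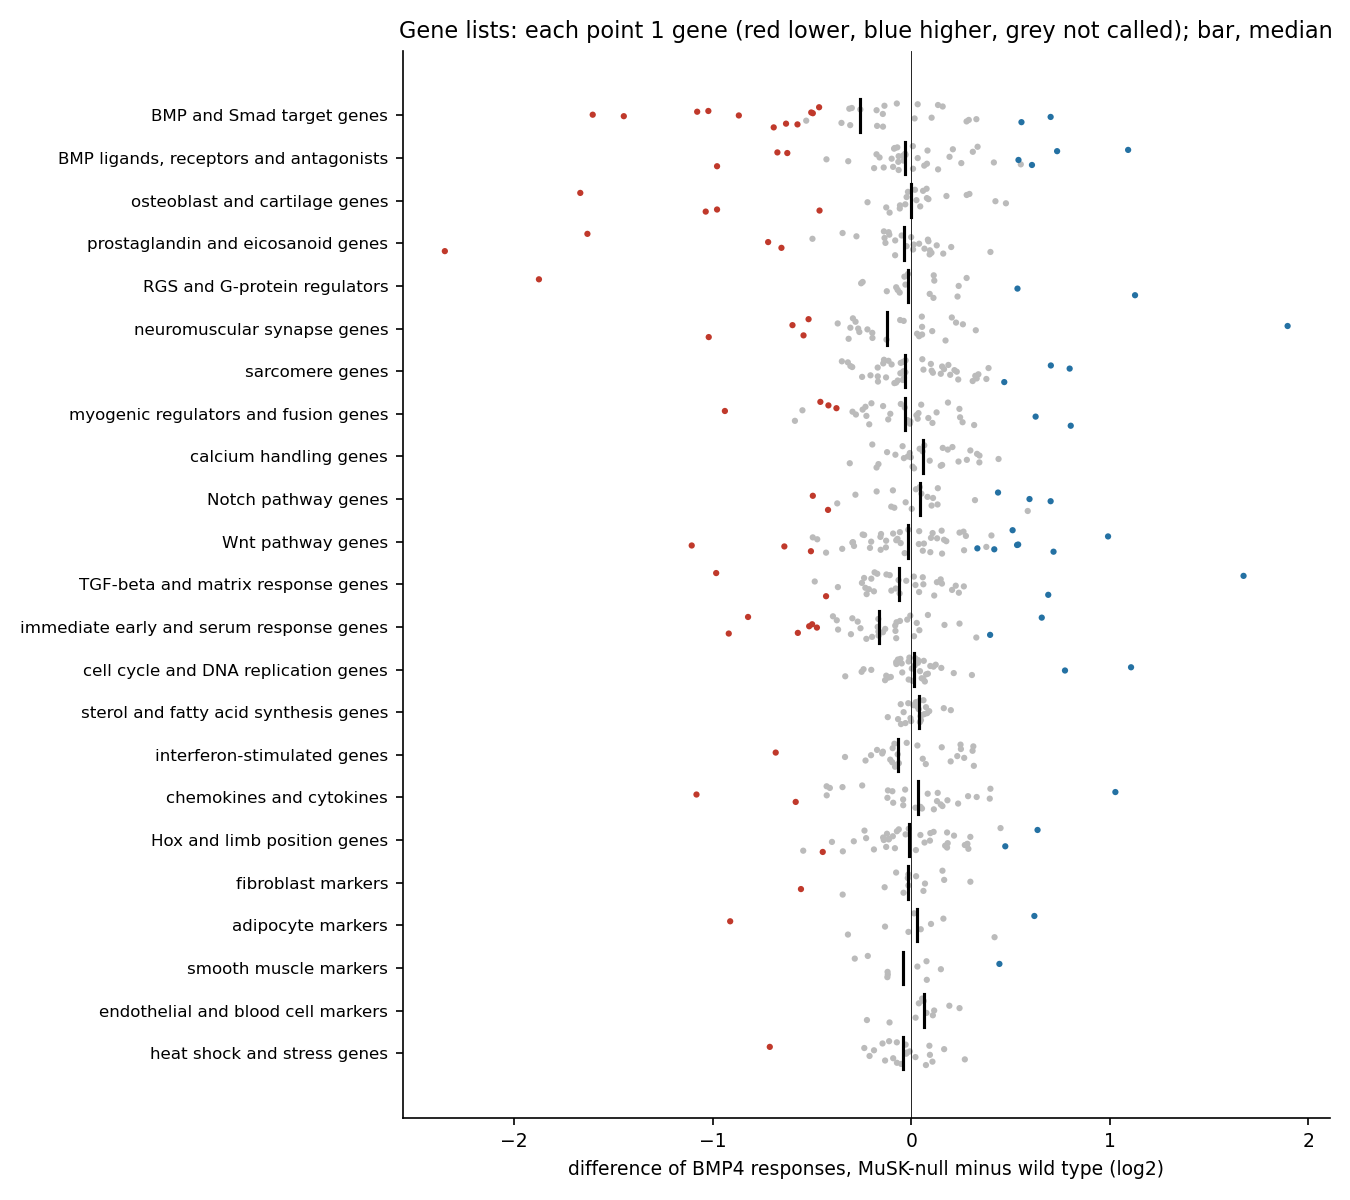
Difference of BMP4 responses (MuSK-null minus wild type, log2, horizontal) for the members of 23 gene lists, 1 point per gene. Red points are called lower, blue points called higher and grey points not called, and a black bar marks the list's median; the bar of the BMP and Smad targets lies at -0.26 and that of the sarcomere genes at -0.03.

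In the Wnt pathway 7 genes had a higher and 3 a lower response in MuSK-null cells among 51 measured, 19.6% called beside 2.39% of all genes. In MuSK-null cells 18 rose and 3 fell, beside 3.89% and 4.52% of all genes, and in wild type 22 and 7, beside 5.21% and 5.76%. With arrays centred on the median of all rows 5 had a lower response, and without the array set 4 a higher one. Lgr4, an R-spondin receptor (probe set 10474419), read 13.04, 13.00 and 12.95 in treated and 12.76, 12.69 and 12.62 in untreated MuSK-null myoblasts, against 12.36, 12.48 and 12.39 in treated and 11.01, 10.89 and 11.11 in untreated wild-type myoblasts. Its treated gap was 0.58 and its untreated gap 1.69, the form that Id1 had (difference -1.11). The receptor Fzd1 and the Dickkopf receptor Kremen1 ended lower in MuSK-null cells, by 0.66 and 0.98. The related R-spondin receptor Lgr6 went the other way, rising by 2.20 in MuSK-null and 1.66 in wild-type cells, and Trabd2b, a protease that inactivates Wnt proteins, by 2.08 and 1.09. Lgr6 lost its call without replicates 1 or 3 of treated MuSK-null, 2 of untreated MuSK-null, 3 of treated wild type or 1 of untreated wild type (highest adjusted p 0.0707), and Trabd2b without replicates 1 or 3 of treated MuSK-null, 2 of untreated MuSK-null or 1 of untreated wild type (highest 0.0588), with 0.80 (adjusted p = 0.0743) at its other probe set. Lgr5, a stem cell marker, fell by 0.39 in MuSK-null and 0.92 in wild-type cells.

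Notch pathway genes gave 3 higher (Hey1, Heyl and Notch1) and 2 lower responses (Lfng and Dll1) among 23 measured, 21.7% called beside 2.39% of all genes. Without the array set 1 was higher and 0 lower. Heyl, a repressor like Hey1, fell by 0.86 in wild type and changed by -0.27 (adjusted p = 0.074) in MuSK-null cells, while the ligand gene Dll1 fell by 0.96 in MuSK-null and 0.54 in wild-type cells. Lfng, which modifies Notch receptors, was higher in MuSK-null cells by 1.47 after and 1.96 before BMP4. Its call was lost without replicate 3 of untreated MuSK-null (adjusted p = 0.0507), and that of Notch1 on leaving out 9 of the 12 arrays in turn, all but replicate 2 of treated MuSK-null, 3 of untreated MuSK-null and 2 of untreated wild type (highest adjusted p 0.126).

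Immediate early and serum response genes are of interest because serum was withdrawn from treated cells. Of 37 measured, 6 had a lower and 2 a higher response in MuSK-null cells (21.6% called beside 2.39% of all genes, median difference -0.17). In MuSK-null cells 6 rose and 4 fell, beside 3.89% and 4.52% of all genes, and in wild type 13 and 2, beside 5.21% and 5.76%. Egr1, an early growth response factor, read 9.73, 9.42 and 9.64 in treated and 10.18, 9.95 and 10.25 in untreated MuSK-null myoblasts, against 10.16, 10.25 and 10.00 in treated and 9.88, 9.60 and 9.75 in untreated wild-type myoblasts. It fell by 0.53 in MuSK-null cells and rose by 0.39 in wild type, and the order of the lines turned. Spry2, an inhibitor of growth factor signalling, did the same (changes -0.59 and 0.23), and Jun as well (-0.31 and 0.21). Egr2 was higher by 1.07 in untreated MuSK-null cells and rose by 0.64 in wild type alone, with an adjusted p of 0.05 without the array set. Spry1, related to Spry2, had a higher response instead (0.66). It fell by 0.89 in wild type and changed by -0.235 (adjusted p = 0.19) in MuSK-null cells. Before BMP4 it was lower by 1.42 in MuSK-null cells. Without the array set Spry1 was not called (0.47, adjusted p = 0.107). The share of serum in these responses was not tested.

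Secreted and surface proteins of the matrix followed both forms. Timp3, an inhibitor of matrix metalloproteases, rose by 0.35 in MuSK-null and 1.33 in wild-type cells to overlapping treated levels (12.23 to 12.51 in MuSK-null, 12.40 to 12.65 in wild type). Adamts5, an aggrecan-cleaving protease, read 11.57, 11.67 and 11.59 in treated and 12.64, 12.59 and 12.56 in untreated MuSK-null myoblasts, against 9.74, 9.85 and 9.80 in treated and 11.48, 11.42 and 11.53 in untreated wild-type myoblasts. Treated MuSK-null cells thus stood near untreated wild-type cells, and the fall was 0.99 in MuSK-null and 1.68 in wild-type cells. Among TGF-beta and matrix response genes in all, 2 responses were higher and 2 lower of 35 (11.4% called beside 2.39% of all genes). Dcn, the fibroblast proteoglycan decorin, fell by 0.90 in MuSK-null and 0.34 in wild-type cells and was the 1 fibroblast marker of 14 with a called difference (-0.56).

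Other lists gave 0 to 3 calls each, beside 2.39% of all genes. No member of the 25 sterol and fatty acid synthesis genes was called in the difference of responses (0 of 25), 1 of 28 interferon-stimulated genes was lower (Irgm1), 2 of 38 cell cycle and replication genes were higher (E2f2 and Cdkn1c) and 1 of 22 heat shock genes was lower (Hspb8). Of 39 Hox and limb position genes Hoxb2 and Tbx20 had a higher and Hoxa10 a lower response, and of 30 chemokines and cytokines Il15 was higher and Cxcr4 and Csf1, the macrophage growth factor, were lower. Hspb8 lost its call on leaving out 8 of the 12 arrays in turn, all but replicate 1 of treated MuSK-null, 3 of untreated MuSK-null, 3 of treated wild type and 1 of untreated wild type (highest adjusted p 0.0848), and without the array set (0.171). Tbx20 lost it on leaving out 9, all but replicate 1 of untreated MuSK-null, treated wild type or untreated wild type (highest 0.123), and Hoxb2 without replicate 3 of untreated wild type (0.0501). Without the array set 0 of the Hox and limb genes was called in either direction. Of 10 smooth muscle markers the kinase gene Mylk alone had a called difference (0.44), which was lost without replicate 1 of untreated MuSK-null (adjusted p = 0.0537) and without the array set (0.204).

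The same difference of responses was set beside that in myotubes of the same lines, which were differentiated for 3 days at 37 °C and treated with the same dose and time without loss of serum. The three-way difference, myotube minus myoblast, tests whether the 2 differ, and serum, temperature and stage cannot be told apart in it. Of the 477 myoblast genes, 205 were called in the three-way difference (2.5% of all genes are), 81 were called in myotubes in the same direction, 41 in the opposite one and 355 were not called there. In myotubes 3.21% of all genes were called, 1.5% higher and 1.71% lower. Among the 205, 105 lower myoblast differences had a positive three-way difference and 3 a negative one, and 95 higher ones had a negative and 2 a positive one. The myoblast difference enters the three-way value with its sign turned, so this order follows in part from the choice of genes.

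Sp7, Alpl and Kremen1 had lower responses in MuSK-null cells at both stages, with myotube differences of -2.67, -1.21 and -0.65 and no called three-way difference (-1.01, -0.18 and -0.01). That of Sp7 lay just over the threshold (adjusted p = 0.0511). Rgs4 and Hpgd were lower at both stages and less so in myotubes (-1.09 and -0.94, three-way 0.78 and 1.41). For Id1, Ptgs2, Avpr1a, Tgm2, Chrnd and Mir206 the three-way difference was called (1.58, 1.30, 1.13, -1.91, 1.12 and 1.47) and the myotube difference was not (0.14, -0.34, -0.41, -0.23, 0.10 and 0.43). Id3, Id2, Csf1, Myoz1, Il15 and Ccbe1 had called differences in opposite directions at the 2 stages. Lin7a was higher at both, by 0.98 in myotubes (three-way -0.91, adjusted p = 0.0505).

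**Figure D5:**
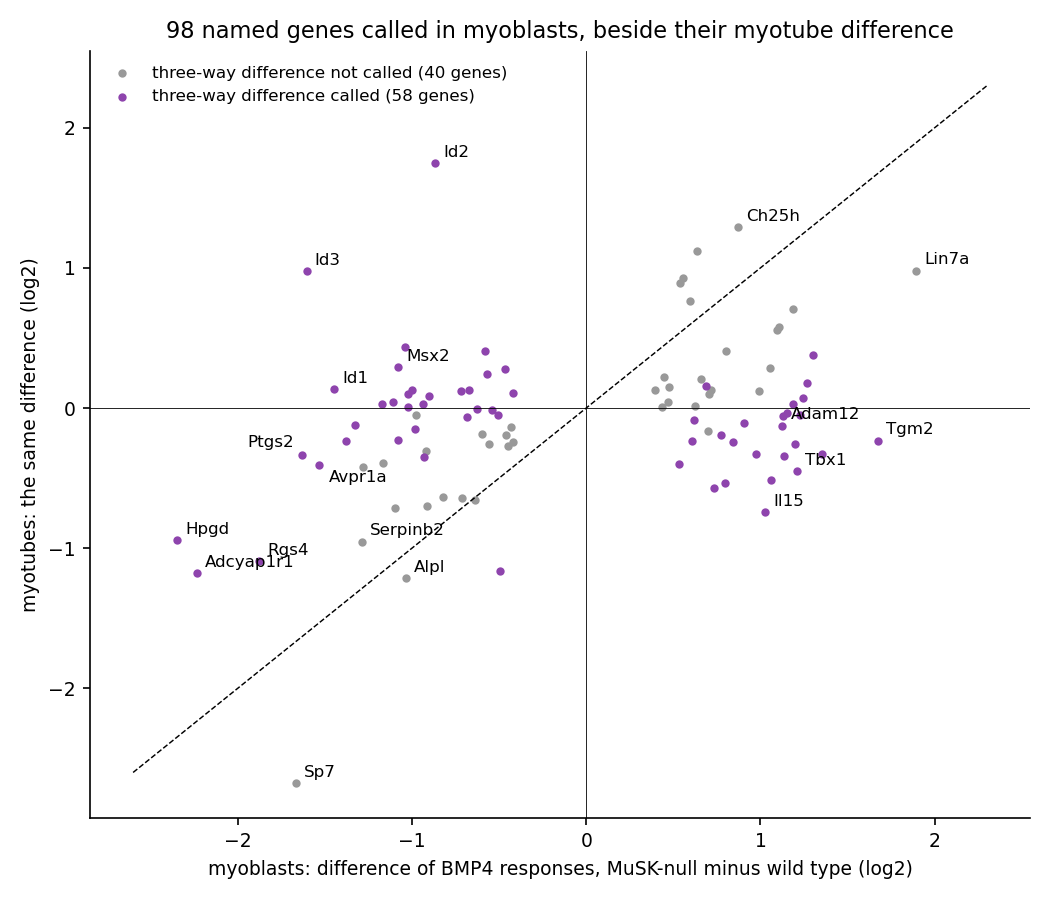
Difference of BMP4 responses (MuSK-null minus wild type, log2) in myotubes (vertical) and myoblasts (horizontal) for the 98 named genes called in myoblasts. Purple marks the 58 genes with a called three-way difference and grey the 40 without, and the dashed line marks equal differences; Sp7 lies below it, while Id2 and Id3 lie above 0 in myotubes.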

How the data were processed

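RNA was measured on Affymetrix gene arrays. The deposited values are log2 signals; the submitters' processing notes name Affymetrix Expression Console and Partek without versions, and no source used here states the background correction or normalization. Of 35556 rows, 21789 name 1 gene; for the 999 genes with more rows, the row with the highest mean over all arrays was kept, which left 19938 genes. Values ran from 2.50 to 15.03, and nothing was renormalised. limma 3.58.1 in R 4.3.3 fitted 1 mean per group over all 24 arrays (16 residual degrees of freedom), and p-values were Benjamini-Hochberg adjusted over all genes. The labels call the 3 arrays of a group biological replicates. Array number limits the precision; the median SE of a difference of responses was 0.13. Replicate numbers did not pair the samples.

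The members and gene lists were chosen with earlier results of these data known. Genes named were the 15 most positive and 15 most negative called differences, up to 3 called genes per list and direction, the 3 largest per class of levels, the 10 largest opposite responses and a set of genes of interest; predicted genes and microRNAs were left out of the rankings. Other called list members, the BMP receptors and Smads, and Mir206 were named after their values were seen. Settings varied were the samples in the fit, moderation, a filter on dim genes, quantile normalization, centring, all rows, a replicate block and each array left out. The array set and a second centring were added after seeing the data. The fit was tested on simulated data.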

Additional observations from a re-analysis of the deposited data

Results flagged for a closer look

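Every called difference of responses is a difference between the lines under the same treatment, tested by its own interaction term; 477 genes met it in myoblasts, and 498 genes met the same test between stages (the three-way difference). Groups of 3 arrays are too small for a test of outlying values gene by gene, and none was run.

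Among them, 13 named genes had called responses in opposite directions in the lines. Responses of MuSK-null minus wild-type cells differed by -2.35 for Hpgd, -1.08 for Cxcr4, -1.0 for Stra6, -0.93 for Ephb6, -0.92 for Egr1, -0.90 for Sh3bp4, -0.82 for Spry2 and -0.68 for Irgm1, which fell in MuSK-null and rose in wild-type cells. They differed by 0.72 for Frzb, 0.84 for Sparcl1, 0.87 for Ch25h, 0.97 for Pmaip1 and 1.23 for Adgrg1, which rose in MuSK-null and fell in wild-type cells.

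A further 6 named genes had called differences of opposite sign in myotubes and myoblasts. The three-way difference, myotube minus myoblast, was 2.58 for Id3, 2.61 for Id2 and 0.99 for Csf1, which had a higher response in MuSK-null myotubes and a lower one in MuSK-null myoblasts. It was -1.33 for Myoz1, -1.77 for Il15 and -1.58 for Ccbe1, where the signs were the other way round.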

How the results depend on the processing

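The difference of responses kept between 345 and 536 called genes, against 477, with the 12 myoblast arrays alone (353), those arrays with a replicate block (345), trend and robust moderation (536), a dim-gene filter (534), quantile normalization (531), centring on the median of genes (488) or of all rows (447), each row tested (492) or the array set left out (352). With the array set as a block it moved to 745, and the three-way count to 783. It was 49 with a difference of at least 1 log2 unit required. Leaving out 1 array at a time gave 371 to 449 genes for the difference of responses, 1332 to 1728 for the MuSK-null response, 1808 to 2257 for the wild-type response, 5125 to 6066 for the treated gap, 5527 to 6361 for the untreated gap and 389 to 501 for the three-way difference. No called difference, response or gap of a named gene changed sign, but medians over all genes near 0 did: that of the difference of responses was -0.03 with centring on all rows (0.01 as deposited), and that of the three-way difference 0.02 with centring on genes (-0.04). Of the 98 named called genes, 81 kept their call without each of the 12 arrays. Centring on the median of genes moved the share of higher calls to 60.3% of 6425 genes for the treated gap (47.4% as reported). It moved that share to 61.5% of 6565 for the untreated gap (49%) and 61.9% of 535 for the three-way difference (47.4%). For the MuSK-null response the share was 42.8% of 1700 (46.2%). Centring on the median of all rows moved the share for the treated gap the other way, to 38.3% of 5764. It left the share for the untreated gap at 48.9% of 6065. With that centring the share was 33.9% of 1648 for the MuSK-null response and 59.4% of 438 for the three-way difference.

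Same-numbered arrays of different groups had deviations that correlated at -0.36 to 0.52 over 18 pairs, 12 of them over 0.1, so the numbers are not a pairing. With 12 arrays alone the calls of Bmp2, Vgll3, Adamts1, Dusp5, Notch1, Actn2, Lgr6, Bmp4, Jsrp1, Tbx20, Spry1, Hey1, Tmod1, Boc and Trabd2b were lost, and without the array set those of Bmp2, Hspb8, Egr2, Lfng, Smad7, Vgll3, Hoxa10, Adamts1, Dll1, Pax3, Dusp5, Notch1, Mylk, Actn2, Hoxb2, Rgs16, Heyl, Jsrp1, Tbx20, Spry1 and Mstn; the cause was not tested. With 3 arrays a group and 1 line a genotype, the spread is that between these cultures alone.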
